A study of Mus musculus with 24 samples.

Results

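Tight junctions seal the gap between neighbouring epithelial cells, and 9 genes of their strands and scaffold were followed here in the distal small intestine of mice fed a control or a high-fat diet with or without metformin. The genes were chosen by symbol: the claudins Cldn2, Cldn3, Cldn4, Cldn7, Cldn8 and Cldn15, together with Ocln (occludin), Tjp1 (zonula occludens protein ZO-1) and F11r (junctional adhesion molecule A). They are 9 of the 55536 genes in the deposited count table, and all 9 passed the filter on low counts that left 13505 genes for testing. The samples were 24 C57BL/6N mice in 4 groups of 6, each with 3 males (M1 to M3) and 3 females (F1 to F3). Mice entered the study at 4 to 5 weeks of age and ate either a control diet with 10% of energy from fat (CD) or a high-fat diet with 60% (HFD). After 20 weeks on the diet, CDmetf and HFDmetf mice received metformin, an oral glucose-lowering drug, in the drinking water at 50 mg per kg body mass per day for 10 weeks, while CD and HFD mice stayed on the diet alone. Each animal came from its own cage, and bulk tissue of the ileum was sequenced after rRNA depletion, so that muscle, immune and vascular cells contributed RNA as well as epithelium.

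Claudins are small membrane proteins with 4 membrane-spanning segments that polymerise into the strands of the junction. Some of them, such as Cldn2 and Cldn15, form channels that let small cations and water pass between cells, whereas others, such as Cldn3, Cldn4 and Cldn8, are known mainly for tightening the barrier. Ocln is a further strand protein, F11r an immunoglobulin-type adhesion protein of the junction, and Tjp1 the cytoplasmic scaffold that ties strand proteins to actin. A leakier junction is widely discussed in obesity, which is the setting in which diet and metformin were compared.

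The libraries held between 1829690 and 40606442 reads on genes, with a median of 3467308 that set the precision for low genes. Levels below are in CPM, the reads of a gene scaled to a TMM-normalized library of 1000000 reads, and a count of 3 reads corresponded to between 0.0722 and 1.65 CPM. The library HFDmetf F2 had the fewest reads on genes, the largest unmapped share (46.9%) and 36.6% of its reads in 10 genes. In the library CD M3, 85.4% of the reads came from 10 genes, against 9.22% to 36.6% in the other libraries. The library labelled HFD M2 held 3355 Xist reads and 0 reads from Y-linked genes, and the library labelled HFD F2 held 1 and 423, so both went against their sex labels. Genes that define the ileum differed widely: Fabp6, the ileal bile acid binding protein, ran from 0.841 CPM in HFD M3 to 2618 CPM in CDmetf F2. In HFD M3, Fgf15 was at 0 and Fabp1, an absorptive gene of the more proximal intestine, was at its highest value of 1708 CPM. Of 5 colon genes, Aqp8, Hoxd13, Hoxb13 and Car1 had 0 reads in 23, 23, 21 and 20 libraries, with Car1 at up to 11.7 CPM in CDmetf M2, whereas Aqp4 was present in every library at 13.7 to 40.8 CPM. Epcam, a general epithelial marker, was present in every library at 619 to 1989 CPM.

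Per kilobase of exon, the 9 genes covered a wide range of levels. Cldn7 was the most abundant, with a median of 290 CPM per kb over the 24 libraries (136 to 391), followed by Cldn3 with 212 (96.9 to 311) and Cldn15 with 143 (67.2 to 243). F11r followed with a median of 72.4 CPM per kb, Cldn4 with 59.5, Ocln with 36.6, Tjp1 with 36.4 and Cldn2 with 23.4. Cldn8 was the lowest, with a median of 1.16 CPM per kb and a maximum of 5.35. Cldn7 exceeded Cldn3 in 20 of 24 libraries, Cldn3 exceeded Cldn15 in 18, and Cldn15 exceeded F11r in all 24. The order of Ocln and Tjp1 was not resolved, since Ocln was the higher in only 11 of 24 libraries, and Tjp1 exceeded Cldn2 in only 15. Cldn8 stood below Cldn2 in every library.

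**Figure D1:**
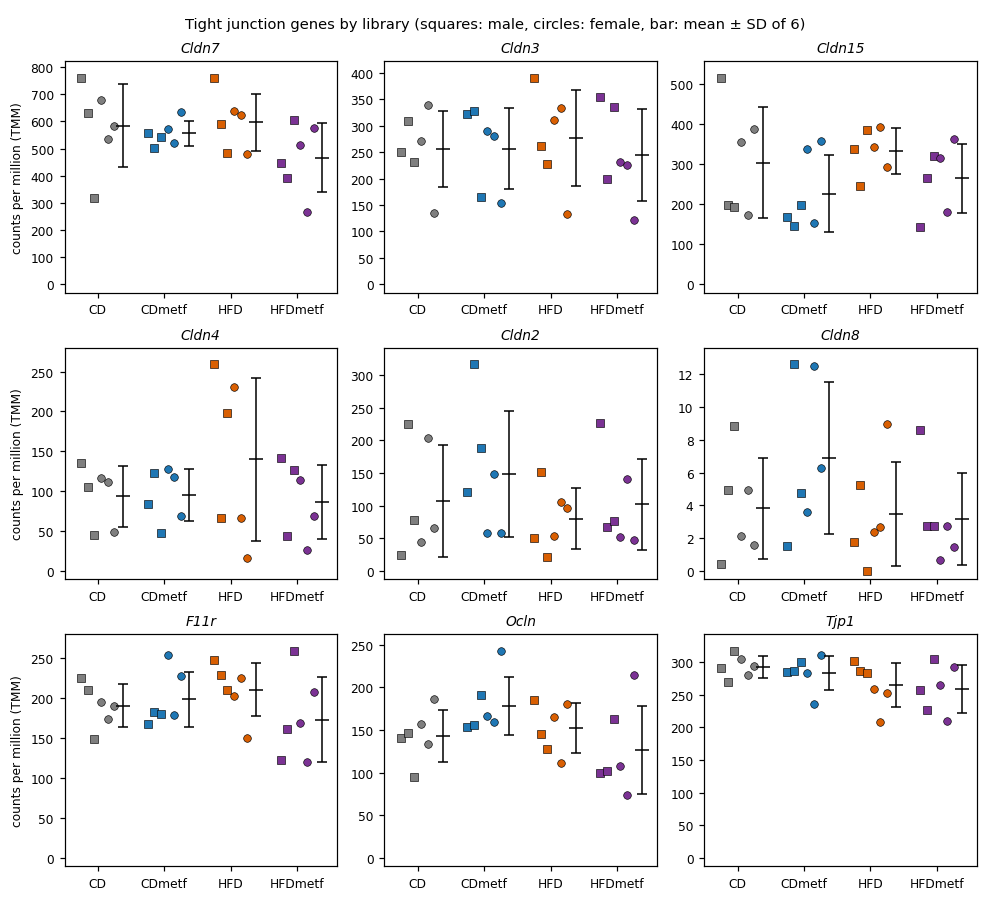
CPM of the 9 genes (y axis, linear) in each of the 24 libraries by group (x axis), with squares for males, circles for females, and a bar for the mean ± SD of 6 libraries. The groups overlapped for every gene, Tjp1 kept the narrowest range (208 to 317 CPM), and Cldn2 (21.9 to 316 CPM) and Cldn4 (16.9 to 259 CPM) the widest among the claudins above 10 CPM.

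The genes also differed in how much they varied between animals. Tjp1, the scaffold, had a coefficient of variation of 11.1% over the 24 libraries and ranged only from 208 to 317 CPM. F11r followed with 19.8%, Cldn7 with 21.6%, Ocln with 26.5%, Cldn3 with 29.9% and Cldn15 with 35.8%. Cldn4 and Cldn2 spread most among the well-covered genes, with 58.9% and 69.7%, and their highest library was 15.3 and 14.5 times the lowest. Cldn8 had a coefficient of variation of 83.0% on few reads: 0 in HFD M3, which allowed a level of up to 1.26 CPM for counting error alone, and at most 12.6 CPM in CDmetf M2.

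The first question was whether the high-fat diet changed these genes. In HFD vs. CD, 0 of 9 genes passed the threshold (edgeR quasi-likelihood test, false discovery rate, FDR, under 0.05 over 13505 genes), and the background was the same, with 0% of all genes called. At an unadjusted p under 0.05, 0 of 9 genes stood against 4.75% of all genes. In CD, the level of the channel claudin Cldn2 had a lowest, median and highest value of 24.4, 72.1 and 225 CPM, and in HFD of 21.9, 75.0 and 152 CPM. The fitted log2 fold change of Cldn2 was -0.19 (SE 0.44, n = 6 per group, edgeR FDR 0.999). Cldn15, the other channel claudin, had 173, 278 and 517 CPM in CD and 245, 341 and 393 CPM in HFD, a fitted change of 0.19 (SE 0.25). The HFD range of Cldn15 lay inside its wider CD range, and that of Cldn2 did so apart from its lowest library, HFD M3. Cldn15 had a coefficient of variation of 45.4% in CD and 16.9% in HFD, a difference that was not tested. Among the barrier claudins, Cldn4 had the largest fitted value, 0.44 (95% interval -0.47 to 1.35): 3 HFD libraries lay at 199 to 259 CPM, above all others in the study, and the lowest of all, HFD F3, was in the same group at 16.9 CPM. The value was 0.075 without HFD M3, and 0.28 without HFD F1 or without CD M3. The tightest estimate was that of Tjp1, -0.15 with a 95% interval of -0.34 to 0.05, so a change of this scaffold by more than about 0.34 on the log2 scale was outside the interval.

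**Figure D2:**
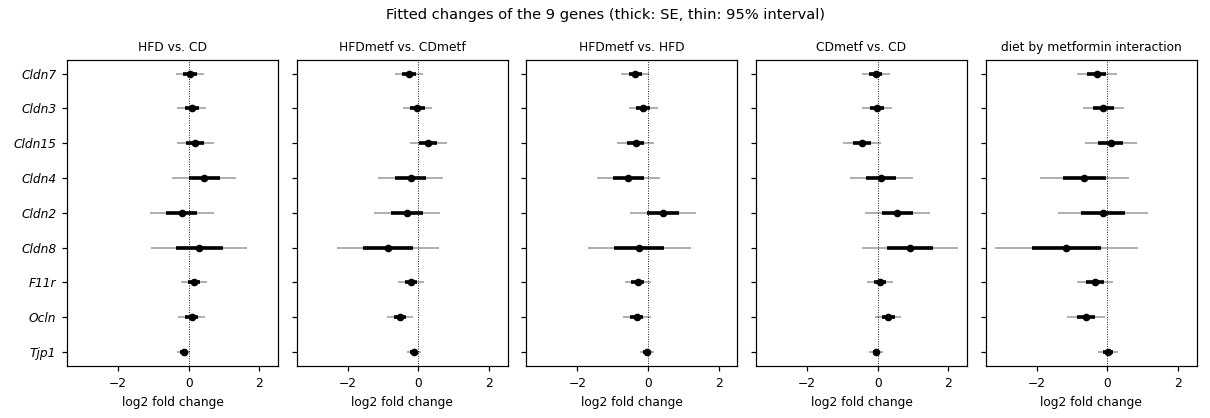
Fitted log2 fold change (x axis) of the 9 genes (y axis) in each of the 4 contrasts and in the diet by metformin interaction, with thick bars for the standard error and thin bars for the 95% interval. The interval left out 0 for Ocln in HFDmetf vs. CDmetf (-0.90 to -0.14) and in the interaction (-1.14 to -0.07) and included 0 for every other gene and contrast shown.

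In the same comparison among animals on metformin (HFDmetf vs. CDmetf), 8 of the 9 genes had a negative fitted value, with a median of -0.22 against 0.03 over all genes tested. Of all genes, 54.3% had a positive value. Again 0 of 9 passed the FDR threshold, as did 0% of all genes, and 1 of 9 had an unadjusted p under 0.05, against 7.55% of all genes. That gene was Ocln. Its level in CDmetf had a lowest, median and highest value of 154, 163 and 243 CPM, and in HFDmetf of 74.2, 105 and 214 CPM. Below the lowest CDmetf library lay 4 of 6 HFDmetf libraries, and also 4 of 6 CD and 3 of 6 HFD libraries. The ranges of HFDmetf and CDmetf overlapped through HFDmetf F3 and HFDmetf M3. The fitted log2 fold change was -0.52 (SE 0.18, n = 6 per group), with an FDR of 0.608 by edgeR, so it did not pass the test over all genes. In animals of the same sex and replicate number, Ocln was lower in HFDmetf in 6 of 6 pairs. The share of all genes with 6 of 6 pairs in the same direction was not computed for any contrast. The other members lay between -0.86 for Cldn8 (SE 0.70) and 0.28 for Cldn15 (SE 0.25), and Cldn2 (-0.32), Cldn7 (-0.26), Cldn8, Tjp1 (-0.13) and F11r (-0.20) each had the lower value in HFDmetf in 5 of 6 pairs without passing the test.

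Epithelial markers are given beside Ocln, with no test of their change. The summed level of 9 epithelial genes (Epcam, Vil1, Krt8, Krt18, Krt19, Krt20, Cdx1, Cdx2 and Elf3, none at 0 in any library) was 7708 to 11506 CPM in CDmetf (median 9654) and 5314 to 10670 CPM in HFDmetf (median 8430), on ranges that overlapped widely. Krt19, Cdx1 and Elf3 had their highest value of the study in HFDmetf M1. Epcam, Vil1, Krt8, Krt20 and Cdx2 had their lowest value of the study in HFDmetf F2, Krt18 in HFDmetf F1 and Elf3 in HFDmetf F3. Krt19 and Cdx1 were lowest in HFD M3. HFDmetf F2, the library of fewest reads, was also the lowest of the study for the sum and for Ocln. Over the 24 libraries Ocln had r = 0.35 and rho = 0.16 with the epithelial score (adjusted permutation p of 0.182 and 0.612), a rho reached by 53.9% of all genes, and r was 0.04 without the 2 farthest libraries. With the epithelial score as a covariate the fitted change of Ocln was -0.36, with the distal small intestine score -0.44, and without HFDmetf F2 it was -0.42. In whole tissue, fewer epithelial cells and less RNA per epithelial cell cannot be told apart.

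Metformin on the control diet (CDmetf vs. CD) gave 0 of 9 genes past the FDR threshold, with 0% of all genes, and 0 of 9 at an unadjusted p under 0.05, with 5% of all genes. Ocln was higher in CDmetf in 6 of 6 pairs, with 94.8, 144 and 186 CPM as the lowest, median and highest value in CD. The fitted change was 0.29 (95% interval -0.09 to 0.67, edgeR FDR 0.963). It was 0.16 without CD M3, the library with 85.4% of reads in 10 genes, which held the lowest CD value, and the other 5 CD libraries ran from 133 to 186 CPM. This contrast and HFDmetf vs. CDmetf share the 6 CDmetf libraries, so the opposite signs of Ocln are not independent of each other. Cldn8 had the largest fitted value of the 9, 0.91 (SE 0.65), and was higher in 5 of 6 pairs on few reads. The paper, which used limma-voom, lists Cldn8 among the genes it called in this contrast at an FDR under 0.05. It reports called genes in all 4 contrasts. Here limma-voom called 0 of 9 members in this contrast, with or without sample quality weights. With the weights Cldn8 was 1.48 (limma-voom FDR 0.082). Cldn15 was lower in 5 of 6 pairs (-0.45, SE 0.25, and -0.19 without CD M1), and Cldn2 had 0.55 (SE 0.44) with 4 of 6 pairs higher.

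On the high-fat diet, metformin (HFDmetf vs. HFD) again gave 0 of 9 genes past the FDR threshold, with 0% of all genes. At an unadjusted p under 0.05 there were 0 of 9 genes, against 6.87% of all genes. A negative fitted value was found for 8 of 9 genes, with a median of -0.29 against -0.0088 over all genes tested, of which 48.8% had a positive value. The epithelial sum had a median of 9985 CPM in HFD and 8430 CPM in HFDmetf, and in HFDmetf F2, the library of fewest reads and most unmapped reads, the mean z-score was -1.34 over the 9 members and -1.35 over the epithelial genes. Each member was refitted with the epithelial score as a covariate and without HFDmetf F2. None changed sign in this contrast, and Ocln moved to -0.21 without HFDmetf F2. The part of epithelial content or of this library in the shift of the set was not tested. Cldn7, the most abundant claudin, had 480, 607 and 761 CPM in HFD and 265, 480 and 605 CPM in HFDmetf. Its ranges overlapped, with 4 of 6 pairs lower and a fitted change of -0.36 (SE 0.19, edgeR FDR 0.620), or -0.23 without HFDmetf F2. F11r had -0.29 (SE 0.18), Ocln -0.31 (SE 0.18), Cldn15 -0.35 (SE 0.25) and Cldn4 -0.56 (SE 0.43), while Cldn2 alone was positive at 0.43 (SE 0.45). Leaving out HFDmetf M1, the library with the highest Cldn2 of that group (227 CPM), turned the value of Cldn2 to -0.12. Cldn8 had -0.25 (SE 0.70), and leaving out HFD F3, the HFD library with the most Cldn8 (8.98 CPM), turned it to 0.37.

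**Figure D3:**
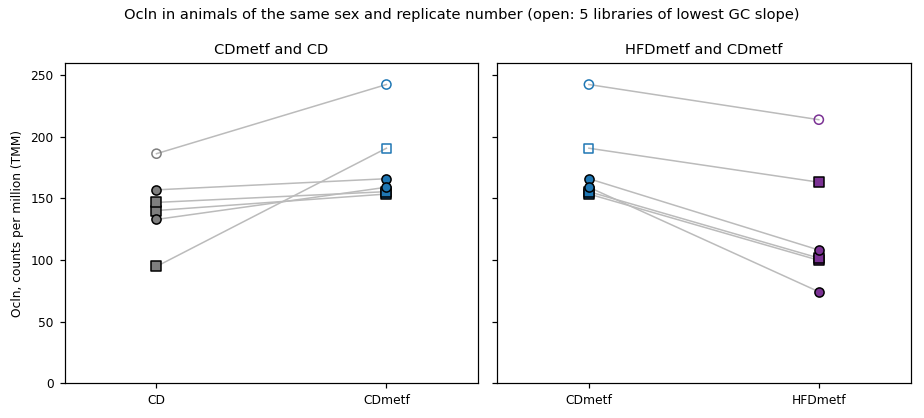
Ocln in CPM (y axis) in the 6 pairs of animals of the same sex (squares male, circles female) and replicate number, joined by lines, for CD and CDmetf and for CDmetf and HFDmetf; open symbols are the 5 libraries of lowest GC slope. All 6 lines rise from CD to CDmetf and all 6 fall from CDmetf to HFDmetf, and both panels use the same 6 CDmetf libraries. The lines join different animals from separate cages.

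The diet by metformin interaction asks whether the metformin contrast differed between the diets. It called 0 of 9 genes and 0% of all genes by FDR, and 1 of 9 at an unadjusted p under 0.05, against 5.76% of all genes. The gene was Ocln, with an interaction of -0.61 on the log2 scale (SE 0.26, edgeR FDR 0.815). The interaction contains the HFDmetf vs. CDmetf contrast, in which Ocln was already named, so it is not a separate result. Cldn8 had the largest value, -1.16, with a 95% interval from -3.17 to 0.85. For Tjp1 the interaction was 0.01 with an interval of -0.27 to 0.29.

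Of the 15 other settings tried besides leaving out single libraries, limma-voom with sample quality weights was the exception in which members were called. There Ocln (-0.59) and Cldn8 (-1.96) passed in HFDmetf vs. CDmetf, Cldn7 (-0.48), Cldn8 (-1.32), Ocln (-0.50) and F11r (-0.40) in HFDmetf vs. HFD, and Cldn8 (-2.80) and Ocln (-0.67) in the diet by metformin interaction. This setting called 822, 2429 and 908 of the 13505 genes in these comparisons, where DESeq2 called 4, 0 and 4 and every other setting called 0.

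Males and females were compared over all groups. By FDR, 0 of 9 genes passed, against 0.0074% of all genes, and at an unadjusted p under 0.05 the count was 1 of 9, against 7.23%. Cldn3 was that gene, with a fitted value of 0.32 higher in males (SE 0.14, edgeR FDR 0.681). Of the 5 libraries with the lowest GC slope, a measure of library GC bias described below, 4 were female, and Cldn3 was lower in all 5 than in any other library. The share of all genes with such a separation was not computed. With the GC slope as a covariate, added after seeing the data, the value was 0.066 (SE 0.13, edgeR FDR 0.985). It was 0.26 without the replicate number as a block and 0.38 without the 2 libraries that went against their sex labels. The exons of Cldn3 overlap those of Wbscr25 on the opposite strand, and the strand setting of the counting is not given in the sources used here, so reads of these genes may be mixed. A difference between males and females in the 4 contrasts was called for 0 of 9 genes and for 0% of 14402 genes. At an unadjusted p under 0.05 it was found for 2.11% of all genes in HFD vs. CD, 5.28% in HFDmetf vs. CDmetf, 3.33% in HFDmetf vs. HFD and 5.21% in CDmetf vs. CD, and among the members for Cldn8 in HFDmetf vs. HFD only. There the male minus female difference was 3.35 (95% interval 0.64 to 6.07, edgeR FDR 1.000), with a male library at 0 reads and both libraries of doubtful sex among the 6 HFD animals.

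Across animals, Cldn2 and Cldn15 varied in opposite directions. Over the 24 libraries their log2 CPM had a Pearson r of -0.86 and a Spearman rho of -0.80 (both permutation p = 1e-05, the smallest 100000 permutations can give, and adjusted p of 0.00018 and 0.00036 over 36 pairs of members). Without the 2 libraries farthest from the median of Cldn2 r was -0.85, within replicate numbers it was -0.98, -0.68 and -0.72, and within the 4 groups it lay between -0.65 and -0.96. Per kilobase, the ratio of Cldn2 to Cldn15 ran from 0.0301 to 1.38, with a median of 0.167, and exceeded 1 in 2 libraries, CDmetf M2 and HFDmetf M1. The group medians of this ratio were 0.184 in CD, 0.536 in CDmetf, 0.135 in HFD and 0.158 in HFDmetf, on ranges that overlapped throughout. Cldn8 went with Cldn2 (r = 0.76, rho = 0.74, adjusted permutation p of 0.00018 and 0.00072). Of the 36 pairs, 8 passed both adjusted tests, and Cldn7 with F11r (r = 0.79, rho = 0.78, adjusted permutation p of 0.00024 and 0.00036) was the other pair with r above 0.75. Of all genes, 4.24% had a rho with Cldn15 at least as large as that of Cldn2, 1.68% with Cldn2 as that of Cldn15, 3.64% with Cldn2 as that of Cldn8 and 1.03% with Cldn7 as that of F11r. The pairs were added after the levels had been seen.

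Both genes also varied with position markers. The proximal score was added after seeing the data. Against a score of 6 genes of the proximal small intestine (Fabp1, Gata4, Cybrd1, Slc40a1, Slc2a2 and Rbp2), Cldn2 had r = -0.84 and rho = -0.87, and Cldn15 r = 0.83 and rho = 0.81, all with a permutation p of 1e-05 and an adjusted p of 0.00018 over 36 relations of 9 members with 4 scores. The relation held without the 2 farthest libraries (-0.84 and 0.81) and within replicate numbers (-0.83, -0.72 and -0.82 for Cldn2, and 0.83, 0.65 and 0.88 for Cldn15). Within groups r was between -0.77 and -0.96 for Cldn2 and between 0.56 and 0.97 for Cldn15. Of all 13505 genes, 0.444% had a rho of at least this size with the proximal score for Cldn2, and 2.18% for Cldn15. The 6 genes of the score did not peak together. Fabp1, Gata4 and Rbp2 were highest in HFD M3 and Slc2a2 in CD M1. Slc40a1 was highest in CDmetf F2, as were the distal genes Fabp6 and Fgf15, and Cybrd1 in CDmetf M3, as was the distal gene Slc10a2. Against a score of 5 distal genes (Slc10a2, Fabp6, Slc51a, Slc51b and Fgf15), Cldn2 had r = 0.76 and rho = 0.74 (adjusted permutation p of 0.00036 and 0.00072), a size reached by 0.37% of all genes. Cldn15 had r = -0.51 against the distal score, and -0.48 without the 2 farthest libraries. A score of 8 villus enterocyte genes was 1.19 in HFD M3, the library with the least Cldn2, and -1.09 in CDmetf M2, the library with the most. The relation of the members to villus or crypt content was not tested, so it was not separated from position along the gut.

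**Figure D4:**
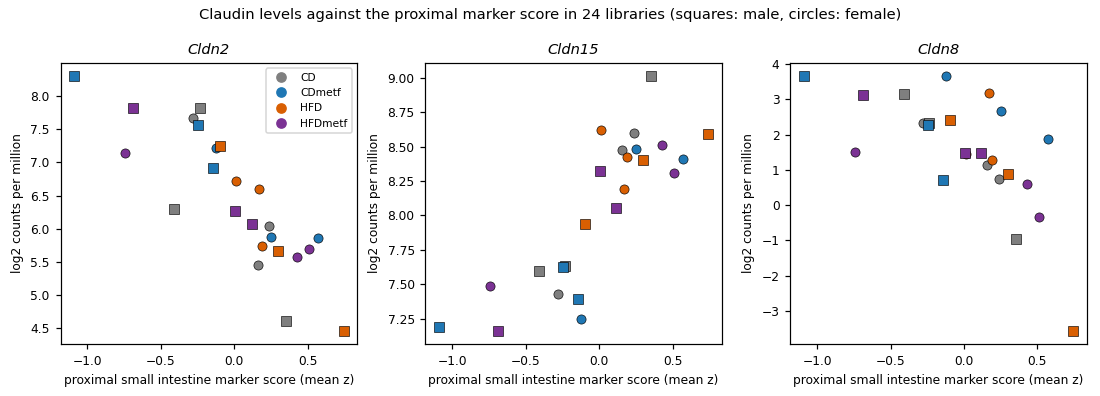
Log2 CPM of Cldn2, Cldn15 and Cldn8 (y axes) against the proximal small intestine marker score, a mean z-score (x axis), in 24 libraries coloured by group (squares male, circles female). Cldn2 falls (r = -0.84), Cldn15 rises (r = 0.83) and Cldn8 falls (r = -0.66) with the score, and all 4 groups are spread along it.

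The smooth muscle score (7 genes, of which 6 were tested) moved with the same claudins. Its r was 0.71 with Cldn2 and -0.73 with Cldn15, both held without the 2 farthest libraries (0.59 and -0.62), and a rho of this size was found in 11.5% and 6.54% of all genes. The part of muscle content in the levels of these claudins was not tested. Cldn8 had r = -0.66 with the proximal score, 0.71 with the distal and 0.57 with the smooth muscle score. The last of these fell to 0.48 without the 2 farthest libraries, and the distal one also fell to 0.48. Of the 36 relations, 13 passed both adjusted tests, which include Cldn7 and F11r with the epithelial score (r = 0.63 and 0.51). Without HFD M3 and HFDmetf F2, the libraries with scores farthest from the median, these fell to 0.44 and 0.43. A rho of the size found was reached by 5.38% of all genes for Cldn7 and 4.52% for F11r with the epithelial score, 11.2%, 8.19% and 20.2% for Cldn8 with the proximal, distal and smooth muscle scores, 7.75% for Cldn15 with the distal score, and 24.7% and 19.2% for F11r with the proximal and smooth muscle scores.

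The 3 genes most like Cldn2 across the 24 libraries were Tspan1 (rho 0.92), Hoxb9 (0.92), a homeobox gene of the posterior body, and 1810065E05Rik (0.91). The strongest opposite was Atp7b, a copper transporter, at -0.96. Those most like Cldn15 were Becn1 (0.96), an autophagy gene, Neurl3 (0.95) and Gramd1c (0.95), and its strongest opposite was Sorcs2 (-0.91). These are the extremes of 13504 genes compared with each member and are given as a description.

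Cldn2 lies on chromosome X at 139800828-139811386 on the plus strand, and Cldn15 on chromosome 5 at 136966616-136975858 on the plus strand (GRCm38). Because these genes moved in opposite directions over the same samples, the sequence before their RefSeq start is shown (GRCm38.p6, plus strand, 5′ to 3′), with motif matches in capitals. For Cldn2 it is the 250 bases of chrX:139800558-139800807, and for Cldn15 the 225 bases of chr5:136967619-136967843, which stop before an exon of the longer annotated transcript.
Cldn2: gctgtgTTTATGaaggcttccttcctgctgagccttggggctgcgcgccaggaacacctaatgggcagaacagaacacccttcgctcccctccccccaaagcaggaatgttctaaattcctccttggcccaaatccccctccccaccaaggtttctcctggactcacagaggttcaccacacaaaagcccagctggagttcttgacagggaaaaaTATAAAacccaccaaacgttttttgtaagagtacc
Cldn15: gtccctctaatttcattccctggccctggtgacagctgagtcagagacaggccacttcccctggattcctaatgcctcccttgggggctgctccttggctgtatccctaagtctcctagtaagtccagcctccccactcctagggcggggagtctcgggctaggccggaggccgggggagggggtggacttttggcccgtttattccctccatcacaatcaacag
The letters searched on both strands were TTTATG, the core recognised by the intestinal homeobox factors Cdx1 and Cdx2, and TATAAA, the TATA box, and their matches share no base. Cldn2 holds TTTATG at positions -244 to -239 and TATAAA at -35 to -30 from the start, both on the plus strand. Over all 32851 RefSeq promoters of 250 bases, 10.8% hold TTTATG and 12.4% hold TATAAA on either strand. A promoter was found for 8 of the 9 members (10 promoters in all), and apart from that of Cldn2 none of them held either motif. A match is a description of letters and not a measured binding site.

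Cldn8, on chromosome 16 at 88560828-88563183 on the minus strand, had its closest likeness elsewhere. Of the 13504 other genes, Glipr2 (rho 0.88), Arntl (0.85) and Sept11 (0.82) were most like it. Arntl encodes BMAL1, the activator of the circadian clock, and 11 clock genes were then looked at, chosen after this was seen and therefore given with no test. Dbp, Tef, Per2 and Per3, which peak in the opposite phase to Arntl, had a rho with Cldn8 of -0.80, -0.84, -0.82 and -0.80, and Nr1d2 of -0.75. Npas2, a partner of BMAL1, had 0.49, Per1 -0.46, Nr1d1 -0.40, Clock 0.14 and Cry1 -0.11. Within replicate numbers, Pearson r between Cldn8 and Arntl was 0.92, 0.84 and 0.81.

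The values behind this were plain in single libraries. The 5 libraries with the most Arntl, between 49.8 CPM in HFD F3 and 74.2 CPM in CDmetf F2, had Cldn8 at 8.98 CPM (HFD F3), 8.61 CPM (HFDmetf M1), 12.6 CPM (CDmetf M2), 6.30 CPM (CDmetf F3) and 12.5 CPM (CDmetf F2). HFD M3, with the least Arntl at 5.47 CPM, had no Cldn8 read, and CD M1, next at 7.98 CPM, had 0.426 CPM on 4 reads. These 5 libraries came from CDmetf, HFD and HFDmetf. The highest CD library was CD M3 (Arntl 43.1 CPM, Cldn8 8.85 CPM), the library with 85.4% of its reads in 10 genes. The hour at which each animal was killed is not given in the sources used here. Because Cldn8 had between 0 and 368 reads per library, single low values carry a large counting error.

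**Figure D5:**
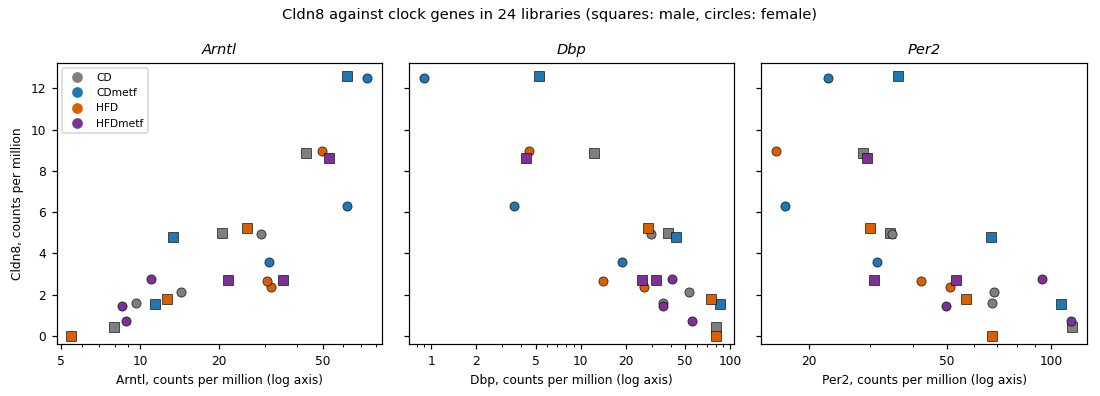
Cldn8 in CPM (y axis, linear) against Arntl, Dbp and Per2 in CPM (x axes, logarithmic) in 24 libraries coloured by group (squares male, circles female). Cldn8 is highest where Arntl is highest and Dbp lowest, with a rho of 0.85 for Arntl, -0.80 for Dbp and -0.82 for Per2.

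Cldn3 (chromosome 5, 134986214-134987472, plus strand) and Ocln (chromosome 13, 100496507-100552718, minus strand) are described against a technical measure of the libraries. The GC slope, the change of a library's log2 level per 10 percentage points of GC content of the gene, was -0.41 to -0.34 in the 5 libraries CD F3, CDmetf F3, CDmetf M3, HFD F3 and HFDmetf F3, and -0.25 to 0.34 in the other 19. The slope was fitted on the tested genes themselves, so genes of high GC content tend to be low in those 5 libraries by its definition. Cldn3, whose exons hold 62.7% GC, had 122 to 165 CPM in those 5 libraries and 200 to 391 CPM in the other 19, with no overlap. The share of all genes that separate these libraries was not computed. Ocln, with 45.1% GC, had 180 to 243 CPM in the 5 and 74.2 to 185 CPM in the 19, ranges that overlapped. Across the 24 libraries the rho with the GC slope was 0.66 for Cldn3, 0.43 for Cldn4, -0.36 for Ocln, and -0.35 for both Cldn15 and Tjp1, and between 0.02 and 0.20 for the other 4. How many of all genes reach such a rho was not computed. With the slope as a covariate, chosen after seeing the data, Ocln in HFDmetf vs. CDmetf was -0.45. Every group held 1 or 2 of the 5 libraries, all of replicate number 3. The part of the GC slope in the levels of Cldn3 and Ocln was not tested further, and that of depth was not tested.

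The other claudins were mostly at or near the limit of detection. Of 17 further claudin genes, 3 passed the filter on low counts: Cldn12 (median 45.1 CPM), Cldn23 (23.2 CPM) and Cldn5 (2.55 CPM), the claudin of blood vessel endothelium. Cldn16 and Cldn22 had 0 reads in all 24 libraries, and Cldn1 had 360 reads in total. None of the 3 passed the FDR threshold in any contrast. Cldn5 was the 1 with an unadjusted p under 0.05, in HFDmetf vs. CDmetf, with 0.979, 1.74 and 2.85 CPM as lowest, median and highest in CDmetf and 0.907, 2.56 and 7.99 CPM in HFDmetf (0.91, SE 0.43, edgeR FDR 0.659). Cldn12 and Cldn23 had fitted values between -0.08 and 0.01 in the 4 contrasts and the interaction.

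All 22 other tight junction genes of a fixed list were tested, and 0 passed the FDR threshold in any contrast. In HFDmetf vs. CDmetf, 18 of 22 had a negative value (median -0.10), whereas 54.3% of all genes had a positive one. Cxadr, an adhesion protein of the junction, had -0.50 (SE 0.21, edgeR FDR 0.626) and the scaffold Magi3 -0.35 (SE 0.14, edgeR FDR 0.626). In HFDmetf vs. HFD, Jam2, a junctional adhesion molecule found also in vessels, had 0.63 (SE 0.26) and Arhgef2, a junction-bound activator of RhoA, -0.39 (SE 0.14), both with an edgeR FDR of 0.620. The scaffold Magi1 was at an unadjusted p under 0.05 against CD in both HFD and CDmetf, and in the interaction. Its lowest, median and highest levels were 96.4, 110 and 126 CPM in CD, 72.2, 86.5 and 93.3 CPM in CDmetf, 75.8, 82.7 and 98.4 CPM in HFD and 77.1, 87.3 and 110 CPM in HFDmetf. Every CD library was above every CDmetf library. These groups did not overlap for 22 of 13505 genes tested (0.163%), and how many would separate by chance was not worked out. Magi1 was named for its small p, so the separation is not a result apart from that p. Its fitted values were -0.38 in HFD vs. CD (SE 0.11, edgeR FDR 0.995), -0.35 in CDmetf vs. CD (SE 0.11, edgeR FDR 0.963) and 0.43 in the interaction (SE 0.15, edgeR FDR 0.815). HFD vs. CD and CDmetf vs. CD share the 6 CD libraries.

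Of 14 adherens junction and desmosome genes, which join epithelial cells below the tight junction, 14 were tested and 0 passed in any contrast. In HFDmetf vs. CDmetf all 14 had a negative fitted value, with a median of -0.22, beside 0.03 over all genes tested and -0.22 over the 9 members. Of all genes tested, 54.3% had a positive value. The mean z-score of the 14 genes was lowest in HFDmetf F2 (-2.19), the library of fewest reads, and these genes were not refitted without it. Dsg2, a desmosomal cadherin, was the 1 with an unadjusted p under 0.05 (-0.41, SE 0.17, edgeR FDR 0.626), with 513 to 708 CPM in CDmetf and 292 to 682 CPM in HFDmetf. In HFD vs. CD, without metformin, 10 of the 14 were positive, with a median of 0.04.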

How the data were processed

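Bulk RNA-seq libraries of the distal small intestine of 24 mice were analysed from the table of raw read counts per gene that the authors deposited. The authors trimmed reads with Trimmomatic 0.39 and aligned them with STAR 2.5.3a, per the submitters' processing notes, to GRCm38. The annotation release and the strand setting are not given in the sources used here. Groups, sex and replicate number came from the sample labels. Counts were fitted with the quasi-likelihood test of edgeR 4.0.16 in R 4.3.3, with TMM normalization and filterByExpr (13505 of 55536 genes kept), with group, sex and replicate number as a block (17 residual degrees of freedom), and p-values were adjusted by Benjamini-Hochberg over all genes tested at a threshold of 0.05. The block follows the study's design with 3 blocks in time, although the labels do not say that the replicate number is the block. Deviations from group means had a mean correlation of 0.143 in 72 pairs of libraries with the same number and of -0.0703 in 144 pairs with different numbers. In the 36 pairs of the same sex and number the mean was 0.102, with single pairs from -0.524 to 0.675. The difference between males and females in each contrast used 8 groups (14402 genes, 14 residual degrees of freedom). CPM are counts scaled by the TMM-adjusted library size, log2 CPM used a prior count of 1, and a marker score is the average over its genes of z-scored log2 CPM. Correlations used 100000 permutations, two-sided. Replicates were separate animals. Intervals on low counts cover counting error only.

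All 9 members were named in every comparison. From the further lists, up to 6 genes at an unadjusted p under 0.05 in a contrast were named, and for each member the 3 genes of highest Spearman rho. The members and lists were chosen with earlier results of these data known. Gene symbols were matched for 55450 identifiers. The fit was tested on simulated data. Alternatives were limma-voom (limma 3.58.1) with and without sample quality weights, DESeq2 1.42.0, another normalization, other filters on low counts, no replicate block, fewer libraries, no sex term, and marker scores or the GC slope of the library as covariates.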

Additional observations from a re-analysis of the deposited data

Results flagged for a closer look

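In 36 groups of 6 libraries (9 genes in 4 groups), 2 had a library far from the others, by a rule that chance meets in about 1 of 20 groups. Cldn8 was at 8.61 CPM in HFDmetf M1, the highest of its group, with the next library at 2.75 CPM and a gap that took up 0.741 of the group's range. Tjp1 was at 235 CPM in CDmetf F2, the lowest of its group, with the next library at 283 CPM and a gap of 0.639 of the range.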

How the results depend on the processing

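Of 45 fitted values (9 genes in 4 contrasts and the interaction), 25 kept their direction under every alternative, 12 changed sign under an alternative setting and 17 on leaving out 1 library. No reversed value was over 0.43 in size, and the causes were not tested. The number of members called was 0 in the main analysis and differed from it only with limma-voom and sample quality weights, which called 2 in HFDmetf vs. CDmetf, 4 in HFDmetf vs. HFD and 2 in the interaction. Relations of members with marker scores fell from 13 to 8 without the 2 farthest libraries. With no replicate block, Ocln was -0.49 in HFDmetf vs. CDmetf and -0.59 in the interaction, Cldn3 was 0.26 in males against females, and the number of members called stayed at 0. With the GC slope as a covariate, chosen after seeing the data, Cldn3 in males against females was 0.066. A minimum of 10 counts in every library removed Cldn8. Cldn8 had 0 to 368 reads per library, which limits its values.

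In HFD vs. CD, Cldn2 turned to 0.045 with the distal score and 0.13 with the proximal score as a covariate. Cldn7 turned to -0.04 and Cldn15 to -0.0069 with the proximal score, and to -0.084 and -0.0071 without HFD M2 and HFD F2. In HFDmetf vs. CDmetf, Cldn2 turned to 0.021 with the distal score, and Cldn3 to 0.061 with the epithelial and 0.018 with the distal score. In HFDmetf vs. HFD, Cldn2 turned to -0.12 with the proximal score and Tjp1 to 0.017 with at least 10 counts in every library. In CDmetf vs. CD, Cldn3 turned to 0.051 with quality weights, 0.028 with no filter and 0.023 with the GC slope, Tjp1 to 0.0013 with no filter and F11r to -0.048 with quality weights. In the interaction, limma-voom turned Cldn15 to -0.076 and Tjp1 to -0.00084, and no filter turned Tjp1 to -0.061.

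Ranges on leaving out 1 library, with the libraries that turned the sign, were as follows. In HFD vs. CD they were -0.57 to 0.016 for Cldn2 (CD F2), -0.034 to 0.20 for Cldn3 (CD M1, HFD F2), -0.11 to 0.092 for Cldn7 (CD M3, HFD M1, HFD F2), -0.47 to 0.79 for Cldn8 (HFD F3) and -0.050 to 0.16 for Ocln (CD M3, HFD M1). In HFDmetf vs. CDmetf the range was -0.25 to 0.088 for Cldn3 (CDmetf F1, CDmetf F2, HFDmetf M2, HFDmetf F1, HFDmetf F3), and Ocln kept its sign at -0.67 to -0.42. In HFDmetf vs. HFD it was -0.12 to 0.75 for Cldn2 (HFDmetf M1), -1.31 to 0.37 for Cldn8 (HFD F3, HFDmetf F1, HFDmetf F3) and -0.071 to 0.014 for Tjp1 (HFD M2, HFDmetf M1). In CDmetf vs. CD it was -0.11 to 0.094 for Cldn3 (CD M3, CD F2, CDmetf M3), -0.11 to 0.33 for Cldn4 (CD M3, CDmetf M2, CDmetf F2), -0.20 to 0.023 for Cldn7 (CD M1, CD M2) and -0.036 to 0.13 for F11r (CD M3, CDmetf F1). In the interaction it was -0.81 to 0.21 for Cldn2 (CD M1, CDmetf M3, HFD F3, HFDmetf M2), -0.31 to 0.0066 for Cldn3 and -0.13 to 0.24 for Cldn15 (both CD M1, HFDmetf M2), -0.022 to 0.064 for Tjp1 (CD F1, CD F2, CDmetf F2, HFD F2, HFD F3, HFDmetf F1, HFDmetf F3) and -0.76 to -0.49 for Ocln, which kept its sign. Of the other 28 values, 23 kept their sign but moved by over 1.5 times on leaving out 1 library. Among those the report describes, without HFD M3 Cldn4 was 0.075 in HFD vs. CD, -0.10 in HFDmetf vs. HFD and -0.22 in the interaction. Without HFDmetf M1, Cldn15 was -0.17 and F11r -0.16 in HFDmetf vs. HFD, and Cldn8 was -1.93 in HFDmetf vs. CDmetf and -2.13 in the interaction. Without HFDmetf F2, Cldn7 was -0.23 and Ocln -0.21 in HFDmetf vs. HFD. In CDmetf vs. CD, Cldn2 was 0.32 and Cldn15 -0.19 without CD M1, and Cldn8 was 1.398 and Ocln 0.16 without CD M3.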

Other observations

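The remaining members had different nearest genes across the 24 libraries. Cldn3 was closest to Pnpla2, the adipose triglyceride lipase (rho 0.91), Reep4 (0.86) and Cdx1, an intestinal homeobox factor (0.85). Cldn4 was closest to Cd151, a tetraspanin (0.89), Tmem184b (0.89) and Eif2ak3, the stress kinase PERK (0.88). Cldn7 was closest to Scamp2 (0.93), Atg9a, an autophagy protein (0.93), and Gm9917 (0.92), and F11r to Abcg8, a sterol exporter (0.89), Gpa33, an intestinal surface antigen (0.88), and Tgfa, a growth factor (0.88). Ocln was closest to Gna13, a G protein subunit (0.89), Dnajc3, a chaperone of the endoplasmic reticulum (0.87), and Eps15, an endocytic adaptor (0.85). Tjp1 had the weakest likenesses of the 9, to Tlk2 (0.77), Akap9 (0.73) and Chd1 (0.71). These values are extremes over 13504 genes in libraries that share depth and GC differences, and no test was made on them.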
